A study of Homo sapiens with 12 samples.

Results

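The BCL2 family decides whether the outer membrane of the mitochondrion stays intact, and 10 of its genes were followed here in human A549 cells, a lung carcinoma line of epithelial origin. They were taken by gene symbol from the deposited expression table, where each of the 10 matched 1 row among 58671 gene rows. 9 of the 10 reached at least 1 FPKM (fragments per kilobase of transcript, scaled to library size) in every group, and BMF stayed below 1 FPKM throughout. Cells were parental (WT) or RNase L knockout (RLKO), each untreated or taken 6 h after transfection of 500 ng/ml poly(I:C), which mimics viral double-stranded RNA. Each of the 4 groups had 3 samples, which the table pools into 1 FPKM value, so every level below is the authors' value for a group and no spread between samples stands behind it. How the knockout was made, whether it is 1 clone, and whether the untreated cells received a mock transfection are not given in the sources used here.

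Proteins of the family share short BCL2 homology (BH) regions and fall into 3 kinds. BAX and BAK1 are the effectors that form pores in the outer mitochondrial membrane and let cytochrome c out. MCL1 and BCL2L1 (BCL-XL) are survival proteins that hold the effectors in check, and the BH3-only proteins PMAIP1 (NOXA), BBC3 (PUMA), BCL2L11 (BIM), BMF, BIK and BID bind the survival proteins or activate the effectors directly. RNase L, the enzyme missing from RLKO cells, is switched on by 2-5A during double-stranded RNA sensing and cuts single-stranded RNA, preferably after UU and UA.

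PMAIP1 and BBC3 were the genes of the family that rose in both genotypes, and the promoter windows of both are shown because the changes described next are largest there. RefSeq windows (GRCh38.p14) run from 250 bases before to 50 bases after a gene's start, and 8 of the 10 genes had at least 1, MCL1 and BIK being the other two. In the PMAIP1 window (chr18:59899746-59900045, plus strand) the capitals mark TGACG, the core of the cAMP response element, the element bound by CREB and ATF factors, read on the opposite strand. In the BBC3 window (chr19:47232618-47232917, minus strand) the capitals mark a pair of overlapping matches to GAAANNGAAA, the core of the interferon-stimulated response element bound by IRF factors.
PMAIP1: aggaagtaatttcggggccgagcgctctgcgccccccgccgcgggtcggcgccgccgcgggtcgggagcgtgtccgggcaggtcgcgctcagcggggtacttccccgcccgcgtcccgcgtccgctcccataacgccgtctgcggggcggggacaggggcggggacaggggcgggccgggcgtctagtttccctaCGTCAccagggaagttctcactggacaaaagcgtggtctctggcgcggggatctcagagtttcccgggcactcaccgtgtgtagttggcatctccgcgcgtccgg
BBC3: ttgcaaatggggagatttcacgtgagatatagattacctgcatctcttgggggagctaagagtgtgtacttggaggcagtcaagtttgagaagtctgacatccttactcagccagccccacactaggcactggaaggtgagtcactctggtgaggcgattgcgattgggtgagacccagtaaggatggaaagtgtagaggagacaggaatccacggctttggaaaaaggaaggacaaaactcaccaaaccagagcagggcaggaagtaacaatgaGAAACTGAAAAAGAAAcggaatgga

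Among 35116 promoter windows of the same length in the RefSeq table, 3.57% held GAAANNGAAA on either strand and 24.6% held TGACG. Of the 8 genes with a window, BBC3 was the 1 that held GAAANNGAAA, at bases 276 to 285 and 282 to 291, past the start site. TGACG was found in the windows of PMAIP1, BMF, BCL2L1 and BAX, in PMAIP1 at bases 196 to 200. The percentages in this paragraph count windows, and these 8 genes had 14 windows between them. A gene with several windows has more room for a match, so a count of genes cannot be set against these percentages. The AP-1 site TGANTCA (7.71% of all windows) was found in BBC3 alone of these 8. The GC box GGGCGG (45.0% of all windows) was found in PMAIP1, BCL2L11, BMF, BID, BCL2L1, BAX and BAK1, and the E-box CACGTG (7.26%) in BBC3, BID and BAX, the last with 4 copies. None of the windows of these 8 genes held the NF-kB form GGGNNTTTCC, the full element TGACGTCA or the ATF4 element TGATGCAA, which says only that these letters are not in these windows. Each match describes letters, and binding was not measured.

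The 5 epithelial markers (KRT8, KRT18, KRT19, EPCAM and CDH1) summed to between 584 and 1633 FPKM in each group. Of the 11 leukocyte, fibroblast and endothelial markers, 9 stayed under 1 FPKM in every group, and CD68 (15.9 to 24.1 FPKM) and COL1A1 (2.06 to 7.17 FPKM) did not. Treated libraries held 1.53 times as much spike-in signal as untreated ones in WT and 1.13 times in RLKO. Log2 changes below were taken from spike-in-scaled FPKM plus 1, a scale on which the median protein-coding gene stood at -0.70 in WT and -0.24 in RLKO (12181 genes). In bulk samples, fewer cells and less RNA per cell cannot be told apart.

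In WT cells 2 of the 9 genes tested, PMAIP1 and BBC3, rose after poly(I:C) at the threshold used here (q under 0.05 in the authors' deposited table), and 0 fell. Across all protein-coding genes kept, 4.27% were called higher and 3.09% lower in WT. PMAIP1 and BBC3 were also the 2 that rose in RLKO, where 0 members fell and 0.821% of protein-coding genes were called higher and 0.0246% lower. Without adjustment, 4 members in WT had p under 0.05 with a higher value (background 9.02%) and 1 with a lower value (12.1%), while in RLKO 2 were higher (2.21%) and 0 lower (1.86%).

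PMAIP1 encodes NOXA, a small BH3-only protein that binds MCL1 and promotes its degradation (chromosome 18, 59899948 to 59904306, GRCh38). It stood at 10.1 FPKM in untreated WT, 274 FPKM in treated WT, 12.5 FPKM in untreated RLKO and 138 FPKM in treated RLKO. Both treated groups were above both untreated groups. The FPKM ratio was 27.1-fold in WT and 11.0-fold in RLKO, or 17.7-fold and 9.72-fold after spike-in scaling. On the log2 scale PMAIP1 rose by 4.05 in WT and 3.19 in RLKO, with q = 0.0018 and q = 0.0107 in the authors' deposited table. Those changes ranked 33 and 32 from the top among 12181 protein-coding genes.

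BBC3 encodes PUMA, a BH3-only protein that binds all the survival members (chromosome 19, 47220822 to 47232766). Its level was 2.70 FPKM in untreated WT and 2.60 FPKM in untreated RLKO. After poly(I:C) it was 83.9 FPKM in WT and 24.6 FPKM in RLKO, so the untreated groups were close together and the treated groups stood 3.41-fold apart. BBC3 rose 31.1-fold in FPKM in WT and 9.44-fold in RLKO (log2 3.99 and 2.67 on the spike-in scale), again with q = 0.0018 and q = 0.0107 in the authors' deposited table. The p behind these q-values for BBC3 and PMAIP1 was 5e-05, the lowest in the authors' deposited table, so the calls cannot be ranked against each other.

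**Figure D1:**
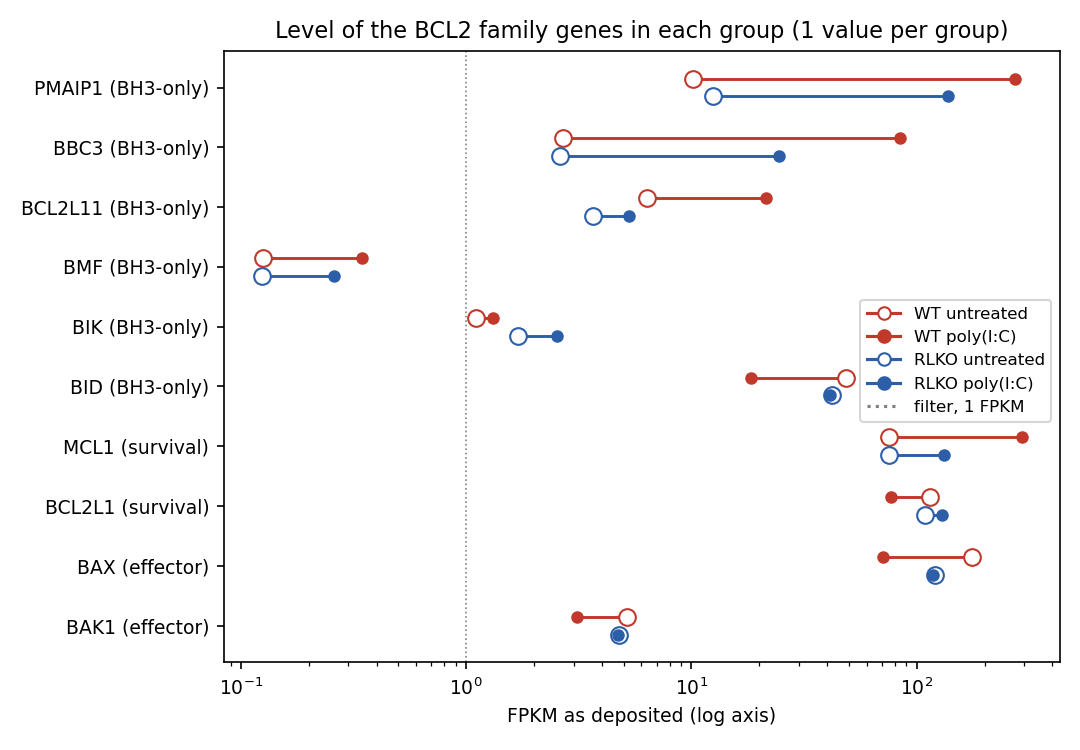
FPKM as deposited (log axis) of the 10 genes, with untreated cells as open and poly(I:C) cells as filled circles, red for WT and blue for RLKO; a circle stands for 1 pooled value with no error, and the dotted line is the filter of 1 FPKM. PMAIP1 and BBC3 have the longest lines in both colours, whereas BID, BCL2L1, BAX and BAK1 have a lower treated value in WT.

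BCL2L11 encodes BIM, which binds all survival members and can activate BAX and BAK1 (chromosome 2, 111119378 to 111168447). It was at 6.34 FPKM before and 21.5 FPKM after poly(I:C) in WT, and at 3.65 and 5.28 FPKM in RLKO. The log2 changes were 1.06 and 0.29, neither of which passed (q = 0.196 and 1.00 in the authors' deposited table; unadjusted p = 0.0328 in WT). BCL2L11 was the member with the largest ratio between the genotypes in treated cells, 4.07 in FPKM, and it was already 1.74 in untreated cells. A lincRNA on the opposite strand, MIR4435-2HG, overlaps its exons, by 727 bases in the exon pair with the largest overlap. MIR4435-2HG stood at 103 FPKM in untreated and 34.4 FPKM in treated WT. Whether the counting used strand is not stated, so reads over the shared bases cannot be told apart.

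BID, which caspase-8 cleaves into an active fragment that links death receptors to mitochondria (chromosome 22, 17734138 to 17774770), had 48.3 FPKM in untreated WT and 18.4 FPKM in treated WT. In RLKO it had 42.2 and 41.3 FPKM. Treated WT was thus the 1 group apart from the other three. The log2 change was -1.94 in WT (unadjusted p = 0.0314, q = 0.191 in the authors' deposited table) and -0.20 in RLKO, and BID did not pass in either genotype.

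BIK, a BH3-only protein of the endoplasmic reticulum (chromosome 22, 43110748 to 43129712), lay near the filter in all groups, at 1.11 and 1.32 FPKM in WT and 1.70 and 2.52 FPKM in RLKO. Its log2 changes were -0.20 and 0.26, and the WT value turns positive without spike-in scaling (0.14). BMF, a BH3-only protein tied to the cytoskeleton (chromosome 15, 40087890 to 40108892), had 0.126 and 0.344 FPKM in WT and 0.124 and 0.259 FPKM in RLKO. The authors' table gives BMF no test, and the filter at 1 FPKM left it out of the medians in this section.

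Of the survival genes, MCL1 had higher and BCL2L1 lower treated values in WT, and neither passed. MCL1 encodes a short-lived survival protein that holds BAK1 and BIM (chromosome 1, 150574551 to 150579738). Its level was 75.05 FPKM in untreated WT, 74.99 FPKM in untreated RLKO, 293 FPKM in treated WT and 132 FPKM in treated RLKO. In FPKM as deposited the untreated values differed by less than 1 FPKM and the treated values stood 2.21-fold apart. After spike-in scaling the untreated values were 94.8 in WT and 77.2 in RLKO, and the treated values 241 and 120. MCL1 had log2 changes of 1.34 in WT and 0.63 in RLKO, and in WT it missed the threshold by little (q = 0.0560, unadjusted p = 0.00485 in the authors' deposited table). BCL2L1 encodes the longer-lived BCL-XL (chromosome 20, 31664452 to 31723989). It had 114 FPKM before and 77.1 FPKM after poly(I:C) in WT, and 109 and 130 FPKM in RLKO, with log2 changes of -1.17 and 0.08. An antisense RNA, ABALON, overlaps exons of BCL2L1, by 943 bases in the exon pair with the largest overlap. ABALON had 5.45 and 11.6 FPKM in WT and 6.23 and 5.22 FPKM in RLKO. Another antisense RNA, AL117381.1, overlaps the gene without sharing exon bases and had 6.51 and 21.4 FPKM in WT and 9.35 and 7.12 FPKM in RLKO. As for BCL2L11, reads over shared bases cannot be told apart.

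Neither effector passed in either genotype, and in WT both had lower treated values. BAX, which moves from the cytosol to mitochondria when activated (chromosome 19, 48954815 to 48961798), had 176 FPKM in untreated WT and 71.0 FPKM in treated WT, against 120 and 118 FPKM in RLKO. BAK1, which sits in the mitochondrial membrane at rest (chromosome 6, 33572547 to 33580293), had 5.19 and 3.11 FPKM in WT and 4.79 and 4.72 FPKM in RLKO. Log2 changes in WT were -1.90 for BAX (q = 0.305) and -1.08 for BAK1 (q = 0.394 in the authors' deposited table), and in RLKO -0.20 and -0.16. The pseudogene BAK1P1 is listed at 6.14 and 3.27 FPKM in WT and at 5.33 and 5.08 FPKM in RLKO, close to BAK1 itself in each group. Reads can be shared between these near-identical sequences, so the BAK1 level is uncertain.

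**Figure D2:**
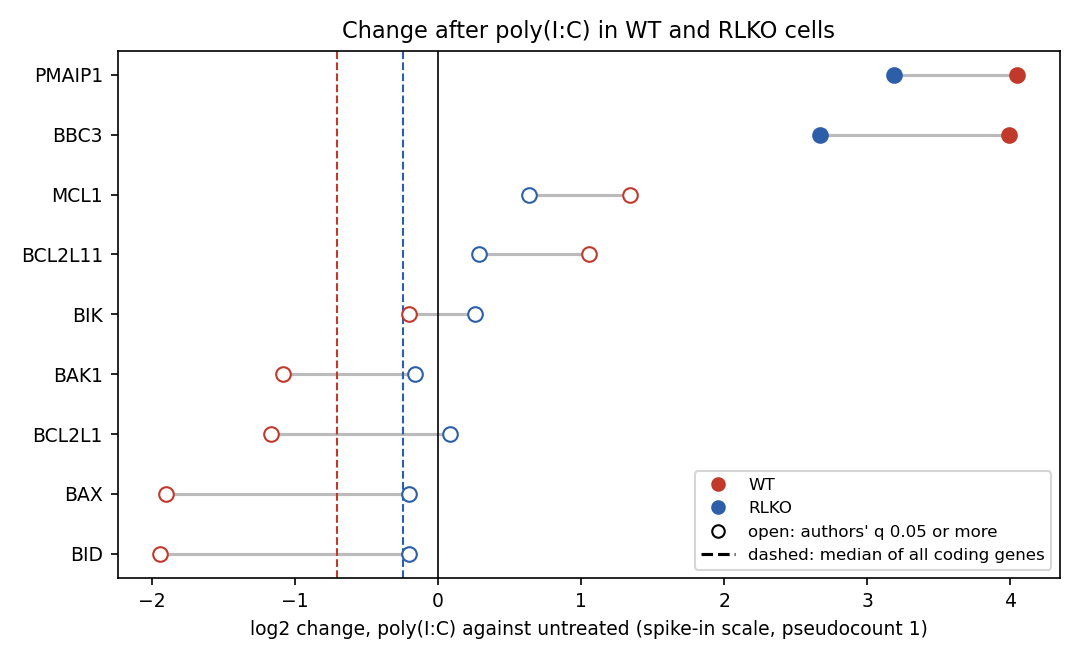
Treated minus untreated log2 level (horizontal axis, spike-in-scaled FPKM plus 1) of the 9 genes that passed the filter, with red points for WT and blue for RLKO, filled where the authors' q was under 0.05; dashed lines are the medians of all protein-coding genes, -0.70 and -0.24. PMAIP1, BBC3, MCL1 and BCL2L11 have the WT point on the right, and the other five have it on the left.

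Over the 9 genes that passed the filter, the median log2 change was -0.20 in WT, beside -0.70 over all protein-coding genes, and 0.26 in RLKO, beside -0.24. The WT median is the value of BIK and takes the sign of that gene, 0.14 in FPKM as deposited. In WT 4 of the 9 were above 0, beside 2632 of all 12181 protein-coding genes. In RLKO 6 of the 9 were above 0, beside 2411 of all 12181. Above the protein-coding median lay 5 of the 9 in WT and all 9 in RLKO, beside 6090 of all 12181 by definition. The WT changes spread from -1.94 (BID) to 4.05 (PMAIP1), and the RLKO changes from -0.20 (BAX) to 3.19 (PMAIP1). The BH3-only genes that passed the filter had medians of 1.06 in WT and 0.29 in RLKO.

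The response of WT minus that of RLKO differed in sign within the family. It was above 0 for BBC3 (1.33), PMAIP1 (0.86), BCL2L11 (0.77) and MCL1 (0.71). It was below 0 for BID (-1.74), BAX (-1.70), BCL2L1 (-1.25), BAK1 (-0.92) and BIK (-0.46). The median difference over all protein-coding genes was -0.47, and 3255 of 12181 had a difference above 0. BBC3 exceeded 97.8% of protein-coding genes in this difference, BIK 50.5% and BID 4.29%. BIK thus lay at about the median of all protein-coding genes, and its difference was -0.25 in FPKM as deposited. Each of the 9 differences kept its sign under all scalings and pseudocounts that were run. With 1 pooled value per group, the difference between genotypes was not tested for any gene.

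The genotypes were closer in untreated than in treated cells for all 9 genes on the spike-in scale. On the spike-in scale untreated WT minus untreated RLKO lay between -0.20 (BIK) and 0.92 (BCL2L11), with a median of 0.35 beside 0.24 over all protein-coding genes. After treatment WT minus RLKO lay between -1.26 (BID) and 1.69 (BCL2L11), with a median of -0.57 beside -0.25. BAX was the member for which both differences were of like size, 0.84 and -0.86, with opposite signs. None of these values carries a test.

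The order of the levels changed with treatment. In untreated WT the most abundant transcripts per length were BAX, BCL2L1, MCL1 and BID, and untreated RLKO had the same order. In treated WT they were MCL1 and PMAIP1, with BBC3 the third at 83.9 FPKM and BCL2L1 the fourth at 77.1 FPKM. In treated RLKO PMAIP1 (138 FPKM), MCL1 (132 FPKM) and BCL2L1 (130 FPKM) lay within 8 FPKM of each other. No spread is available to say which neighbours in these orders differ. PMAIP1 went from above 43.3% of protein-coding genes in untreated WT to above 98.3% in treated WT, and from 47.9% to 94.7% in RLKO.

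Shares of the family total and ratios between members do not depend on how the groups are scaled to each other. In FPKM as deposited the 10 genes summed to 439 FPKM in untreated and 843 FPKM in treated WT, and to 371 and 596 FPKM in RLKO. Unlike the shares, a comparison of these sums between groups does depend on the scaling. Spike-in scaling divides the ratio of treated to untreated sum by 1.53 in WT and by 1.13 in RLKO. PMAIP1 made up 2.30% of the family sum in untreated and 32.5% in treated WT, and 3.37% and 23.1% in RLKO. BAX made up 40.0% and 8.41% in WT, and 32.4% and 19.8% in RLKO. The BH3-only genes together held 15.7% before and 47.4% after treatment in WT, and 16.9% and 35.5% in RLKO, while the survival genes held between 43.1% and 49.4% in every group. These sums hide opposite moves. In WT the shares of BBC3 (0.615% to 9.94%), BCL2L11 (1.44% to 2.55%) and BMF (0.0287% to 0.0408%) rose like that of PMAIP1. Those of BID (11.0% to 2.18%) and BIK (0.253% to 0.157%) fell. MCL1 went from 17.1% to 34.7% and BCL2L1 from 26.0% to 9.14%. In RLKO MCL1 went from 20.2% to 22.2%, BCL2L1 from 29.2% to 21.8% and BID from 11.4% to 6.93%.

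**Figure D3:**
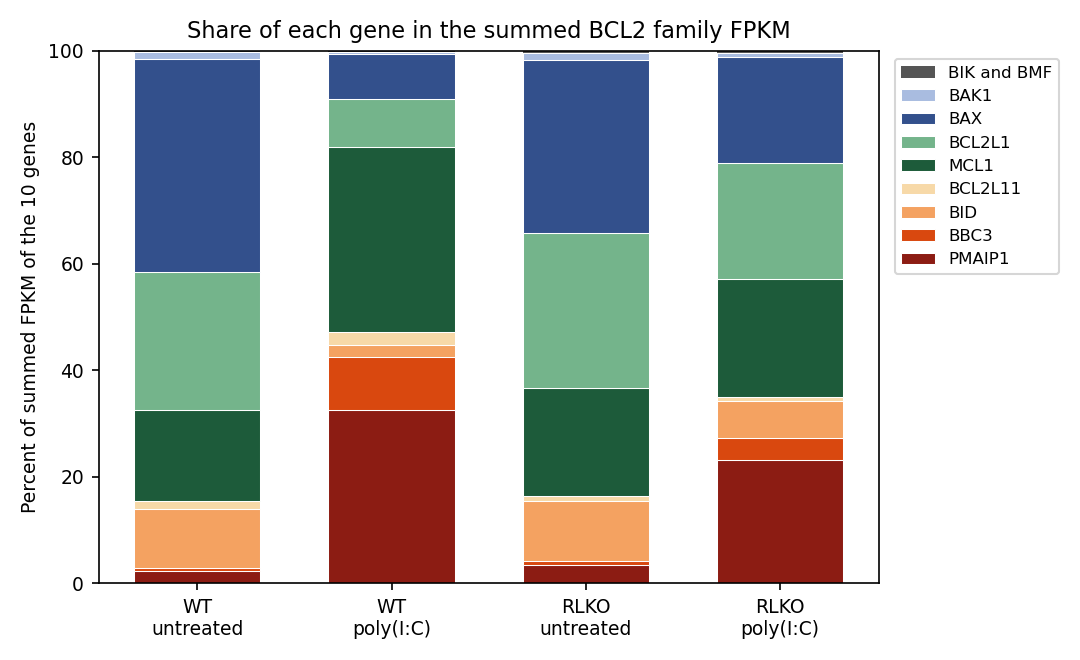
Percent of the summed FPKM of the 10 genes (vertical axis) held by each gene in each of the 4 groups, 1 pooled value per group, with BH3-only genes in red and orange, survival genes in green and effectors in blue. The red PMAIP1 segment grows from 2.30% to 32.5% in WT and from 3.37% to 23.1% in RLKO, and the dark blue BAX segment shrinks to 8.41% and 19.8%.

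PMAIP1 and MCL1, whose proteins pair with each other, had an FPKM ratio of 0.135 in untreated WT and 0.938 in treated WT, and of 0.167 and 1.04 in RLKO. Treated cells of both genotypes thus held about as much PMAIP1 as MCL1 transcript per length. The ratio of PMAIP1 to BCL2L1 was 0.0885 before and 3.56 after treatment in WT, and 0.115 and 1.06 in RLKO, so here the treated groups were apart. MCL1 over BCL2L1 was 0.657 and 3.79 in WT and 0.691 and 1.02 in RLKO. The BH3-only sum over the survival sum was 0.363 and 1.08 in WT and 0.342 and 0.807 in RLKO. These are ratios of transcripts, and protein was not measured.

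The deposited table carries a transcript half-life that its authors took from another study, and the members fall along it. Half-lives were 2.33 h for PMAIP1 and BCL2L11, 2.38 h for BBC3 and MCL1, and 2.17 h for BMF. They were 3.23 h for BCL2L1, 3.33 h for BAK1, 8.22 h for BID and 8.24 h for BAX, and BIK has no value. The 4 genes of the filtered set under 2.5 h are those with a higher treated value in WT and a difference above 0 between the genotypes, and the 4 with longer half-lives have values below 0 in both measures. Over these 8 genes, Spearman's rho of half-life with the change was -0.84 in WT and -0.89 in RLKO. The 8 points come from the same libraries, and this is a description.

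The same direction was seen over all protein-coding genes with a half-life (9527 genes), where rho was -0.51 in WT and -0.21 in RLKO. For the WT minus RLKO difference rho over these genes was -0.53. The median difference was 0.05 under 2.5 h, -0.33 from 2.5 to 4 h, -0.60 from 4 to 8 h and -1.05 at 8 h or more. A difference below 0 at a longer half-life was thus common and not particular to the family. Genes under 2.5 h (1040) had a median WT change of -0.05, and 10.8% of them were called higher in WT. Genes of 8 h or more (2889) had a median of -1.35, and 0.796% of them were called higher. BAX (-1.90) and BID (-1.94) thus lay below the median of genes of like half-life, but not below the lower quartile of -1.95. BCL2L1 (-1.17) and BAK1 (-1.08) lay below the lower quartile of genes of 2.5 to 4 h, which was -1.05. PMAIP1, BBC3, BCL2L11 and MCL1 lay above the upper quartile of genes under 2.5 h, which was 0.47. Long-lived genes were also more abundant, with a median of 41.2 FPKM in untreated RLKO for those of 8 h or more against 6.24 FPKM for those under 2.5 h. The part of level in the relation was not separated. Genes of 100 to 300 FPKM in untreated RLKO, the range of BAX and BCL2L1, had a WT median of -1.90, and those of 30 to 100 FPKM, the range of BID and MCL1, one of -1.25.

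**Figure D4:**
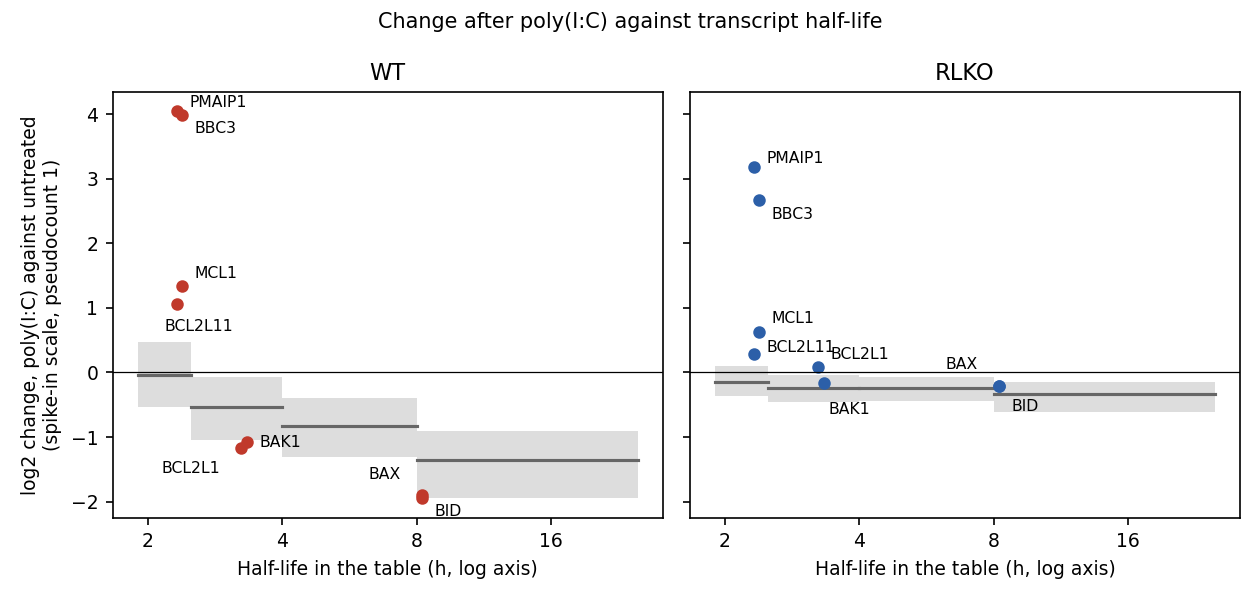
Treated minus untreated log2 level (vertical axis, spike-in-scaled FPKM plus 1) against the half-life given in the table (horizontal log axis, in hours) for the 8 members with both values, in WT (left) and RLKO (right); grey lines are medians and grey bands interquartile ranges of all protein-coding genes in 4 half-life ranges. The 4 members near 2.3 h lie above the grey median in both panels, and BAX and BID near 8.2 h lie below it in WT but inside the grey band. BCL2L1 and BAK1 lie below the band in WT.

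A heptamer and a dinucleotide content were examined in the transcripts, and PMAIP1 and BBC3 differed in both. The heptamer TATTTAT, a core of AU-rich elements that bind mRNA decay factors such as ZFP36, was sought in the 3' untranslated regions of GENCODE transcripts. It occurred 3 times each in PMAIP1 and MCL1, 2 times in BCL2L11 and 1 time in BCL2L1, and not in BBC3, BIK, BID, BAX or BAK1. Of 9670 protein-coding genes 39.2% held it, and of those whose region has at least 1000 bases, as in the 4 genes that hold it, 52.6%. One site of each is shown, with the heptamer in capitals (GRCh38).
PMAIP1 (chr18:59903963-59903987, plus strand): gaataatttTATTTATtttgcctat
MCL1 (chr1:150575809-150575833, minus strand): ctctacagaTATTTATatcaattcc
BCL2L11 (chr2:111166865-111166889, plus strand): tattgtgagTATTTATtagattcgt
BCL2L1 (chr20:31664684-31664708, minus strand): gcgtgtctgTATTTATgtgtgagga

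PMAIP1 and BBC3, which rose together, lay at opposite ends in base content. UU and UA, the dinucleotides RNase L prefers, made up 20.2 per 100 positions of the PMAIP1 transcript, more than in 97.1% of 9881 protein-coding transcripts. In BBC3 they made up 4.03 per 100, more than in 3.24%. BAX had 7.81, BAK1 7.19, BCL2L1 8.39, BIK 9.66 and BID 9.98 per 100, all under the protein-coding median of 12.1. MCL1 had 16.3 and BCL2L11 15.3. Over all these transcripts the rho of this content with the WT minus RLKO difference was -0.13, and over the 9 members 0.17, which is weak in both.

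The genes whose pattern over the 4 groups was nearest to that of PMAIP1 were ZC3HAV1, APOL1 and DDX60. PMAIP1 was taken because it had the largest WT change on the log2 scale with a pseudocount of 1, whereas BBC3 had the larger fold and, with a pseudocount of 0.1, the larger change (4.30 against 4.14). Likeness was the Euclidean distance of centred log2 levels over the 4 groups, which was 0.33, 0.35 and 0.42. ZC3HAV1 went from 12.1 to 370 FPKM in WT and from 15.3 to 135 FPKM in RLKO. With 4 points a short distance is easily met.

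Of the 13 other BCL2 family genes 10 passed the filter, and the authors' deposited table (Cuffdiff) called 0 of them in WT and 0 in RLKO, with 0 at an unadjusted p under 0.05 in either. The called shares of all protein-coding genes were 4.27% higher and 3.09% lower in WT, and 0.821% and 0.0246% in RLKO. At an unadjusted p under 0.05 they were 9.02% and 12.1% in WT, and 2.21% and 1.86% in RLKO. Beside such shares, 0 of 10 says little. Their medians were -0.94 in WT and -0.22 in RLKO, beside -0.70 and -0.24 over all protein-coding genes. The most abundant were BAD, a BH3-only protein controlled by phosphorylation (50.5 and 27.5 FPKM in WT, 40.9 and 39.2 FPKM in RLKO), and BNIP3, a mitophagy receptor (33.8 and 23.5 FPKM in WT, 35.2 and 28.4 FPKM in RLKO). Neither passed.

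A list of 16 genes held mitochondrial channels and released proteins, caspases (CASP8, which acts before the mitochondrion, among them) and caspase inhibitors. Of these 1 fell in WT (background 3.09%) and 0 in RLKO (0.0246%), and 0 rose in either (4.27% and 0.821%). VDAC3, a channel of the outer mitochondrial membrane, fell from 500 to 75.8 FPKM in WT (log2 -3.32, q = 0.0201 in the authors' deposited table). It had 428 and 187 FPKM in RLKO, where it did not pass. CYCS, the cytochrome c that the effectors release, had 352 and 91.7 FPKM in WT and 306 and 130 FPKM in RLKO without passing. The median of this list was -1.23 in WT and -0.32 in RLKO, beside -0.70 and -0.24 over all protein-coding genes. At an unadjusted p under 0.05, 1 of the 16 was higher (background 9.02%) and 3 were lower (12.1%) in WT, and 1 (2.21%) and 1 (1.86%) in RLKO.

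Of 11 transcription factors known to activate BH3-only genes 9 passed the filter, and 2 rose in each genotype, where 4.27% of protein-coding genes rose in WT and 0.821% in RLKO. IRF1, an interferon-induced factor, rose from 10.8 to 228 FPKM in WT and from 10.4 to 169 FPKM in RLKO, and JUN, a subunit of AP-1, from 15.1 to 212 FPKM in WT and from 13.8 to 72.6 FPKM in RLKO (q = 0.0018 in WT and 0.0107 in RLKO for both in the authors' deposited table). DDIT3, a stress-induced factor, had 22.0 and 33.7 FPKM in WT and 21.0 and 32.7 FPKM in RLKO and did not pass. It is named beside the rule for that list, after its values were seen. The list's medians were -0.14 in both genotypes, beside -0.70 and -0.24. Of 6 enzymes that add ubiquitin to MCL1 or remove it, 5 were found by symbol and 4 passed the filter. The authors' deposited table (Cuffdiff) called 0 of them in either genotype, and 0 had an unadjusted p under 0.05. The called shares of all protein-coding genes were 4.27% higher and 3.09% lower in WT, and 0.821% and 0.0246% in RLKO. At an unadjusted p under 0.05 they were 9.02% and 12.1% in WT, and 2.21% and 1.86% in RLKO. Beside such shares, 0 of 4 says little. HUWE1, a ubiquitin ligase of MCL1, had 63.3 and 74.1 FPKM in WT and 71.4 and 62.1 FPKM in RLKO, and USP9X, which removes ubiquitin from MCL1, 28.8 and 38.4 FPKM in WT and 40.2 and 44.4 FPKM in RLKO.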

How the data were processed

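RNA was sequenced from 12 samples of A549 cells, 3 in each of 4 groups, after rRNA depletion with ERCC spike-in RNA added beforehand, per the labels. Per the submitters' processing notes, the tools include Cuffdiff 2.2.1, the aligners Bowtie2 2.0.2 and TopHat2 2.0.6, the read trimmer Trimmomatic 0.32 and FastQC. The build named there is GRCh38.p12. The sources used here do not give their settings, strandedness or the scaling between libraries. The deposited table gives 1 FPKM value per group, pooled by the authors over its samples, so no test across samples could be made. It also holds the authors' p-values and q-values for each genotype, and the authors' columns of half-life, length and GC percent. The header gives no unit for half-life, which was read as hours.

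Rows marked HIDATA (86) and repeated identifiers (45) were left out. Rows with at least 1 FPKM in any group were kept. Each group was divided by its median ratio over 49 of the 92 ERCC rows, and changes are differences of log2(value + 1), a pseudocount of 1. A row was called at an authors' q under 0.05. Gene classes, coordinates and transcripts came from GENCODE 29, and promoters from RefSeq. A gene's transcript was the protein-coding one whose length equals the length in the table. Alternatives were other thresholds, filters, pseudocounts and scalings. All 10 family genes were named; of each companion list, genes called in either genotype were named, or the 2 most abundant where fewer than 2 were called. The members and lists were chosen with earlier results of these data known. The scaling was tested on simulated data. Depth is unknown. Some genes are not reported here. Computation used Python 3.11.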

Additional observations from a re-analysis of the deposited data

How the results depend on the processing

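No paired analysis was possible because the table gives 1 pooled value per group, and for the same reason no sample could be left out. The calls of PMAIP1 and BBC3 stood at a q of 0.1, with p-values adjusted over kept rows, without a filter and with one at 5 FPKM. A q of 0.1 added MCL1 in WT, making 3. At a q of 0.01 the 2 calls in RLKO became 0, since q = 0.0107 there. At an unadjusted p under 0.05, 4 members were higher and 1 lower in WT. Of 180 member values recomputed under another scaling or pseudocount, 5 changed sign. These were BIK in WT (0.14 in FPKM as deposited, 0.10 with median-ratio scaling over genes), and BID (0.16), BAX (0.16) and BAK1 (0.14) in RLKO with median-ratio scaling.

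Scaling shifts all genes together: the median over all kept rows in WT was -0.33 on the spike-in scale, 0.11 in FPKM as deposited and 0.063 with median-ratio scaling. Medians over the members moved too. For FPKM as deposited, median-ratio scaling, the sum of ERCC values, a pseudocount of 0.1, no filter and a filter at 5 FPKM, in this order, the WT median was 0.14, 0.10, -0.25, -0.33, -0.026 and -0.014. The RLKO median was 0.38, 0.51, 0.27, 0.34, 0.20 and 0.18, and that of the difference -0.25, -0.41, -0.51, -0.71, -0.22 and -0.11. Untreated WT against RLKO gave 0.074, 0.17, 0.33, 0.37, 0.32 and 0.36, and treated cells -0.48, -0.61, -0.66, -0.72, -0.26 and 0.14. With so few genes the median follows the gene in the middle. Depth is unknown, so the precision of low values such as those of BMF and BIK cannot be given.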

Other observations

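The region past the 3' end of MCL1 had far higher treated values in WT than in RLKO. It was looked at after values were seen, by listing every gene with at least 1 FPKM in any group within 15 kb of a family gene. ADAMTSL4-AS1, on the same strand as MCL1, begins where MCL1 ends (chromosome 1, 150560202 to 150574552, an overlap of 2 bases). It rose from 1.61 to 46.0 FPKM in WT (q = 0.00319 in the authors' deposited table) and had 2.19 and 2.42 FPKM in RLKO. ADAMTSL4, on the opposite strand and 13614 bases past the end of MCL1, rose from 0.321 to 25.8 FPKM in WT (q = 0.0018 in the authors' deposited table) and had 0.365 and 0.494 FPKM in RLKO. ADAMTSL4 was listed only through its treated WT value, so being highest in that group came with its selection. A pair of 7SL-like repeats, RN7SL600P and RN7SL473P, lies inside ADAMTSL4-AS1 on the same strand. They had 2.02 and 91.0 FPKM and 2.16 and 75.1 FPKM in WT without passing, and at most 4.24 FPKM in RLKO. Reads of such repeats can be shared with other copies. ADAMTSL4 (150549369 to 150560937) also overlaps ADAMTSL4-AS1, so the values of these genes do not come from separate regions. MCL1 itself had 293 FPKM in treated WT and 132 FPKM in treated RLKO, so the ratio between the genotypes was smaller over MCL1 than past its end. Whether transcripts that run on from MCL1 gave these reads was not tested, and the difference between genotypes was not tested.

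Near BAX the gene DHDH, which ends 9846 bases before BAX on the same strand, rose from 0.644 to 5.30 FPKM in WT (q = 0.0018 in the authors' deposited table) and had 0.551 and 0.422 FPKM in RLKO. Like ADAMTSL4, DHDH was listed only through its treated WT value, so being highest in that group came with its selection. Past the end of BAX none of the listed genes passed. The lincRNA AC026803.2, 2177 bases past BAX, had 2.37 and 6.56 FPKM in WT (q = 0.0685 in the authors' deposited table) and 2.67 and 1.39 FPKM in RLKO. FTL, 3503 bases past BAX, had 5536 and 2064 FPKM in WT and 5108 and 4738 FPKM in RLKO. GYS1, on the opposite strand and 6327 bases past BAX, had 12.9 and 17.2 FPKM in WT and 13.2 and 12.6 FPKM in RLKO.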
